A study of Pan paniscus with 11 samples.

Results

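The genes that copy DNA during S phase were followed in cultured fibroblasts of bonobos (Pan paniscus). A list of 38 DNA replication and S phase genes was matched by symbol to the probe sets of an Affymetrix human array. Of these, 37 had a probe set, out of 8226 genes that a probe set names alone, and GMNN was not analysed here. The 37 genes had 50 probe sets, and 11 genes had more than 1. The probe set with the highest mean log2 intensity stood for each gene, and the others are given where they differ. The list was put together with earlier results of these data known.

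Fibroblast lines from 10 normal animals were grown and harvested under the study's standard conditions, with 1 array per line. The donors of female lines 1 to 5 were 9, 2, 4, 20 and 20 years old. Those of male lines 1 to 5 were 4, 2, 12, 17 and 19 years old. An 11th array holds a second culture of male line 1, the line of the animal aged 4 years, harvested at 50% confluence. The labels give no passage number, no body site and no confluence for the standard cultures. Each line is 1 culture of 1 animal, so the spread between lines mixes biological and technical spread. In bulk RNA, fewer cells in S phase and less RNA of these genes per cell cannot be told apart.

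Before S phase, the origin recognition complex, CDC6 and CDT1 load the ring-shaped MCM helicase onto DNA, a step called licensing. CDC7 kinase, CDC45 and the GINS complex then switch the helicase on, primase and the polymerases copy the strands, and the clamp PCNA, set in place by replication factor C, holds the polymerase on its template. Most of these genes are targets of the E2F transcription factors and are raised when a cell leaves rest and enters the cycle.

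Intensities are on the linear scale of the deposited table, where low values had been raised to a floor of 100. A value of 100 is therefore an upper bound. All 10 lines were above the floor for 21 of the 37 genes, and all 11 arrays for 20. POLD1, the catalytic subunit of polymerase delta, was above the floor in 3 lines alone, and 36 genes were above it in at least 5 of the 11 arrays and were tested. The share of probe sets above the floor was 52.1% in female line 1 and 54.3% to 60.9% in the other 10 arrays. All 13 fibroblast markers with a probe set, among them VIM, COL1A2 and THY1, were above the floor in all 11 arrays. Of 5 endothelial, 4 melanocyte, 5 blood and 9 epithelial markers with a probe set, CD3E and KRT10 were. The 3 probe sets against 18S rRNA lay between 1508 and 2611 in the 50% confluence culture, between 146 and 313 in male line 4 and at most at 171 in the remaining lines.

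Female line 1 had the lowest level of nearly all replication genes. Among the 21 genes above the floor in all 10 lines, it was the lowest line for 19, or 90.5%, whereas it was lowest for 17.2% of the 4606 probe sets above the floor in all 10 lines. DUT, whose enzyme clears dUTP, and the primase subunit gene PRIM2 were the exceptions. For all 21 genes female line 1 lay below the median of the other 9 lines, with a median log2 difference of -1.60, against -0.07 over the 4606 probe sets. This pattern was noticed in the data and is a description of 1 culture. Whether the line, its passage or the state of that culture goes with it was not tested.

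**Figure D1:**
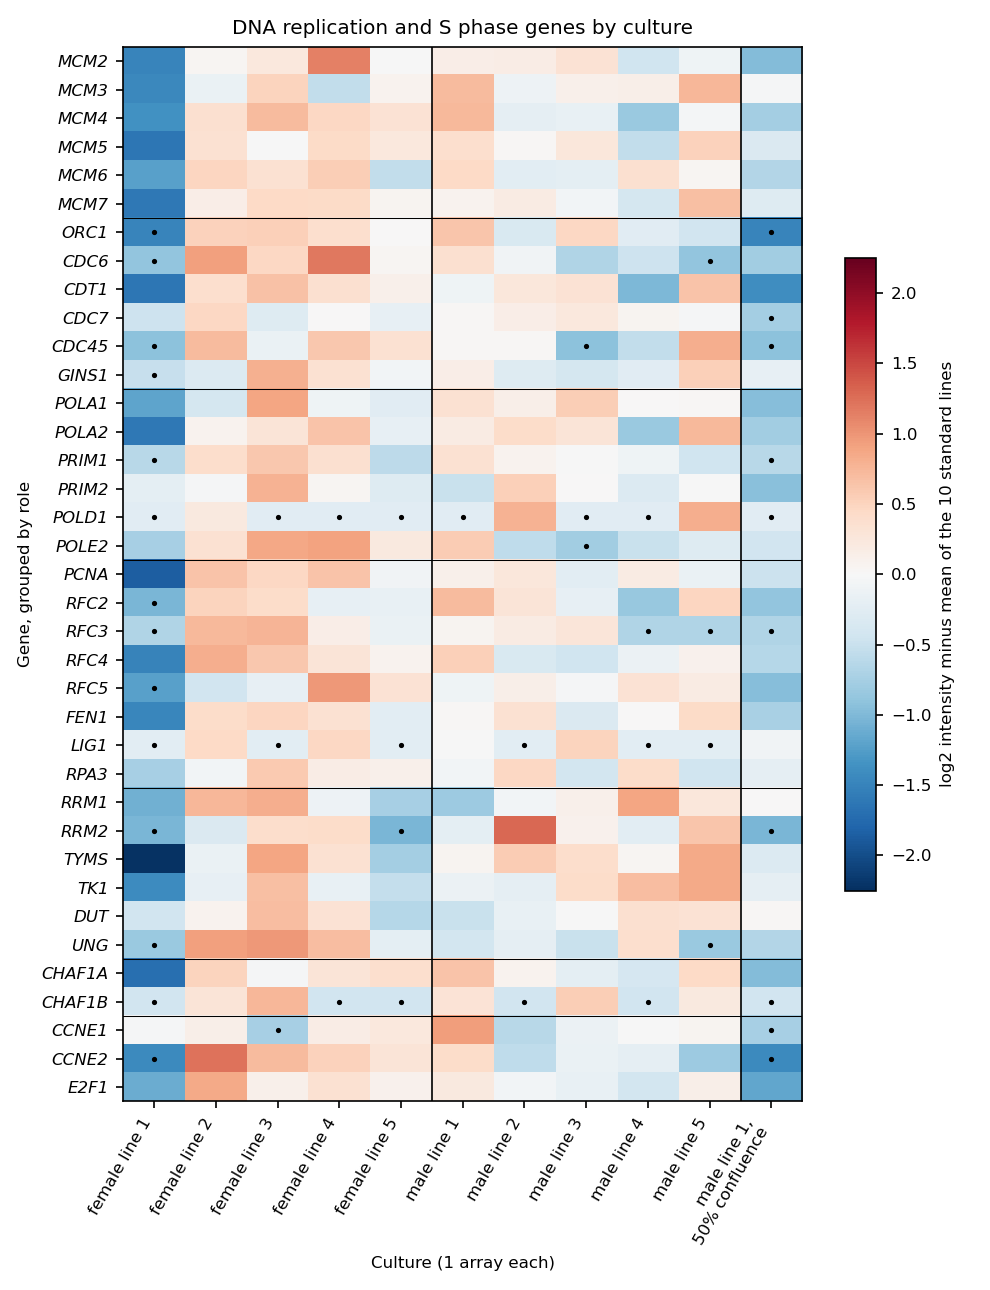
Log2 intensity of each of 37 replication genes (rows, grouped by role) in each culture (columns), as the difference from that gene's mean over the 10 standard lines; dots mark values at the floor of 100. The column of female line 1 is blue for most genes, down to TYMS, and the column of the 50% confluence culture is blue for the licensing genes ORC1 and CDT1 and for E2F1.

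The 6 subunits of the MCM helicase, which unwinds DNA at the fork, were all lowest in female line 1. MCM7 read 406, 1372, 1693, 1672 and 1286 in female lines 1 to 5 and 1309, 1398, 1188, 939 and 1973 in male lines 1 to 5. MCM5 read 140, 546, 429, 578 and 511 in the females and 559, 439, 516, 294 and 614 in the males. MCM2 read 467 in female line 1, 956 to 1639 in 8 other lines and 2871 in female line 4. The 9 lines other than female line 1 thus overlapped between the sexes, and female line 1 stood under them by 2-fold or more for MCM2, MCM5 and MCM7. MCM3 ran from 109 to 500, MCM4 from 136 to 580 and MCM6 from 477 to 1628. SDs of log2 intensity over the 10 lines were 0.57 to 0.67 for the 6 genes, and their 15 pairwise correlations over lines had a median r of 0.71.

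Licensing and firing genes were also lowest, or at the floor, in female line 1. CDT1, the loader of the MCM ring, read 120, 483, 588, 478 and 401 in female lines 1 to 5 and 346, 444, 463, 184 and 578 in male lines 1 to 5. ORC1, the largest subunit of the origin recognition complex, was at the floor in female line 1 and read 208 to 430 in the other 9. CDC6 was at the floor in female line 1 and male line 5 and reached 418 in female line 4. Male line 4 was second lowest for CDT1. CDC45 ran up to 333 with female line 1 and male line 3 at the floor, GINS1 up to 251 with female line 1 at the floor, and CDC7 from 123 to 235. CDC7, the kinase that fires origins, had the smallest SD of the tested members, 0.27.

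The same line was lowest for the clamp and for genes of the lagging strand. PCNA read 621, 3524, 3126, 3535 and 2138 in female lines 1 to 5 and 2447, 2679, 1916, 2565 and 2024 in male lines 1 to 5. FEN1, the flap nuclease that trims Okazaki fragments, read 378, 1388, 1463, 1321 and 886 in the females and 1064, 1322, 838, 1047 and 1410 in the males. For both genes every other line was over 2-fold above female line 1, and the female and male ranges of those lines overlapped. The second PCNA probe set read 332 in female line 1 and 580 to 1101 in the others. By another FEN1 probe set the gap was smaller, with 348 in female line 1, 478 in male line 4 and 612 in male line 5. Of the clamp loader genes, RFC2 and RFC5 were at the floor in female line 1 alone, RFC4 read 124 there and 256 to 613 elsewhere, and RFC3 was at the floor in female line 1, male line 4 and male line 5. RPA3, a subunit of the single-strand binding protein, ran from 130 to 326, and its second probe set did not follow it over the lines (r = -0.10). LIG1, the ligase that seals the fragments, was above the floor in 4 lines, with 166 as its highest value.

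Among polymerase genes, POLA2, a subunit of the polymerase alpha-primase complex, was lowest in female line 1 (163). Male line 4 followed with 279, and 8 lines lay between 440 and 833. POLA1, the catalytic subunit, ran from 121 in female line 1 to 513 in female line 3. PRIM1 was at the floor in female line 1 alone. POLE2, a subunit of polymerase epsilon, was lowest in male line 3, at the floor, with 103 in female line 1. PRIM2 had its lowest value, 256, in male line 1, and its second probe set correlated with the first by r = 0.49 over the 10 lines.

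Nucleotide supply genes had the highest median SD of the 7 roles, 0.70. TYMS, which makes thymidylate, read 335, 1414, 2899, 1988 and 928 in female lines 1 to 5 and 1644, 2348, 2077, 1617 and 2823 in male lines 1 to 5, a range of 8.65-fold and an SD of 0.92, the largest of the members. TK1, the thymidine salvage kinase, read 552, 1288, 2350, 1311 and 1014 in the females and 1344, 1279, 1960, 2394 and 2656 in the males. Female line 1 was lowest for both and female line 5 second lowest. RRM1, the large subunit of ribonucleotide reductase, read 231 in female line 1, 278 in male line 1 and 290 in female line 5, and its highest value was 903 in male line 4. Its partner RRM2 was at the floor in female lines 1 and 5 and highest in male line 2, at 501. DUT was lowest in female line 5 (951) and highest in female line 3 (2393). UNG, which removes uracil from DNA, was at the floor in female line 1 and male line 5 and read 126 to 350 in the other 8.

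CHAF1A, the large subunit of the factor that puts histones on new DNA, read 109, 502, 345, 429 and 459 in female lines 1 to 5 and 550, 373, 302, 271 and 480 in male lines 1 to 5. Its partner CHAF1B was above the floor in 5 lines. Of the S phase entry genes, E2F1 read 161 in female line 1 and 262 to 632 in the others, and CCNE2, a cyclin E gene, was at the floor in female line 1 and read 153 to 624 in the others. CCNE1, the other cyclin E gene, differed from the rest. It read 166 in female line 1, close to its median of 171.5, was at the floor in female line 3 and was highest in male line 1 (323). Its correlation with the mean of the 20 genes above the floor in all 11 arrays was r = -0.11 over the 10 lines, the lowest of the members, and its second probe set did not follow the first (r = -0.15).

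A level for each culture was taken as the mean log2 deviation of these 20 genes from their means over the 10 lines. It was -1.35 in female line 1, which is 2.54-fold below the mean of the lines. The other 9 lines lay between -0.14 (female line 5) and 0.51 (female line 3). The SD over the 20 genes within a line was 0.28 to 0.52, which is a spread between genes and not between repeat cultures. With 1 array per line the error of a level is not known, and the order of these 9 lines was not tested. Female line 3 was the highest line for 12 of the 37 genes, male line 5 for 7 and female line 4 for 6. The 3' to 5' ratio of female line 1 was 1.06 for ACTB, against 0.85 to 2.27 in the other standard lines, and its 18S controls were at the floor. Its 3' control probe sets for ACTB (13960) and GAPDH (15295) were the lowest of the 10 lines. Its share of probe sets above the floor was the lowest of the 11 arrays, as given above, and its summed level of 13 fibroblast markers, 105539, lay near the low end of the range of the 10 lines, 102270 to 150464. The part of these in the result was not tested.

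Much of the spread of the members between lines rested on this culture. Over the 10 lines the median SD of the 36 tested genes was 0.64, against 0.43 over 7333 probe sets. Without female line 1 the medians were 0.43 and 0.42, and the SD was smaller for 32 of the 36. TYMS, PCNA, CHAF1A, MCM5 and MCM7 had the larger falls, whereas CDC6, UNG, RRM1, RRM2 and POLE2 stayed close to their values with all lines. Leaving out any other line gave a median of 0.63 to 0.67. For the mitosis list of 33 tested genes the median SD was 0.81 with all lines and 0.75 without female line 1.

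**Figure D2:**
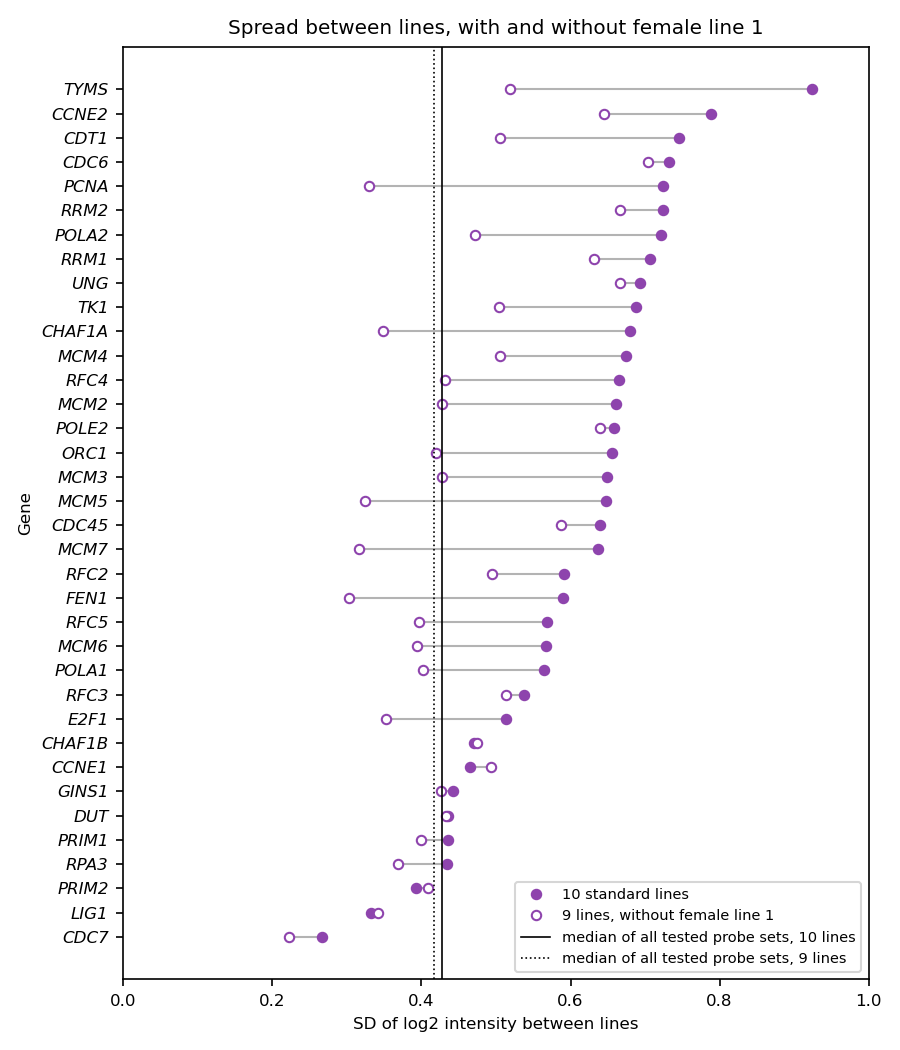
SD of log2 intensity between lines (x axis) for each tested replication gene (rows), over 10 standard lines (filled) and over 9 lines without female line 1 (open); vertical lines are the medians of all 7333 tested probe sets, 0.43 and 0.42. Most open points lie left of the filled ones, by most for TYMS, PCNA, CHAF1A, MCM5 and MCM7.

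Shared movement of the genes followed the same division. Over 10 lines the 630 pairs of tested members had a median r of 0.50, with 95.2% positive, against 0.01 and 50.7% for all pairs of 5360 tested genes. Without female line 1 the median for the members was 0.19, with 69.8% positive, against 0.005 and 50.5% for all pairs of tested genes. The correlations with the mean of the other genes that were highest without female line 1 were those of FEN1 (r = 0.96 with all lines and 0.79 without it), MCM7 (0.95 and 0.77), GINS1 (0.65 and 0.75) and CDT1 (0.87 and 0.65). Among the lower ones were MCM3 (0.74 and 0.06), CHAF1A (0.83 and 0.16), TK1 (0.72 and 0.20) and RFC5 (0.65 and -0.18). All genes of a line were read from the same array with the same scaling. No p is given because the members were chosen with earlier results known.

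Replication genes were then set beside 18 mitosis genes above the floor in all 11 arrays, whose products act when the copied chromosomes are parted. Both levels were lowest in female line 1, at -1.35 and -1.20. In the other lines the order differed. Female line 4 was at 0.29 for replication and -0.61 for mitosis, female line 2 at 0.25 and -0.31 and male line 1 at 0.13 and -0.40, while male line 3 was at 0.03 and 0.67 and male line 4 at -0.11 and 0.34. Male line 5 (0.30 and 1.15) and female line 3 (0.51 and 0.90) were above the mean for both. Over the 10 lines Pearson's r was 0.63 and Spearman's rho 0.59. Without female lines 1 and 3, the lines farthest from the median, they were 0.13 and 0.21. Leaving out female line 1 alone gave an r of 0.36 and female line 3 alone 0.56, and leaving out the extreme lines narrows the range.

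**Figure D3:**
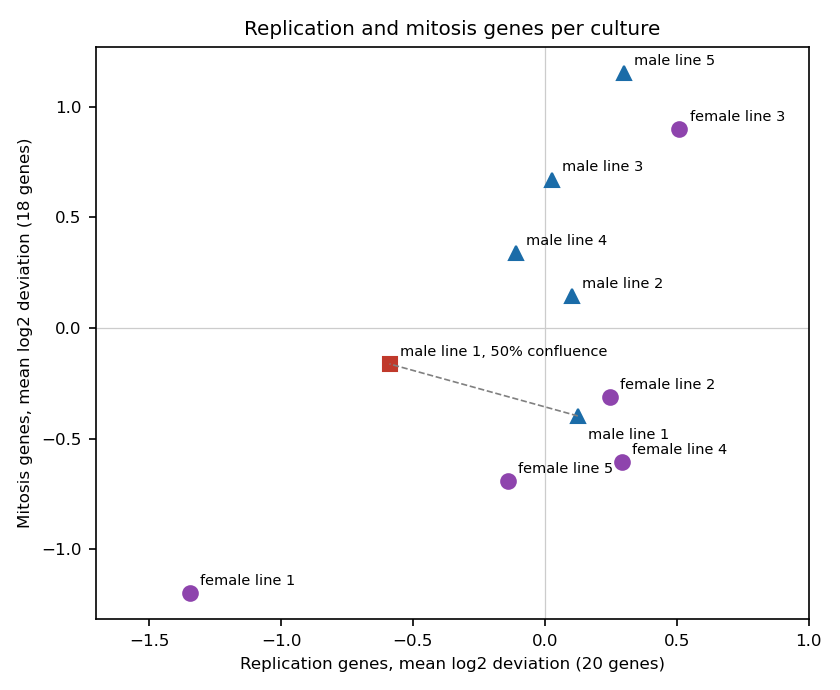
Mean log2 deviation of 20 replication genes (x axis) and 18 mitosis genes (y axis) from their means over the 10 standard lines, 1 point per culture (circles female, triangles male, square the 50% confluence culture). Female line 1 lies at -1.35 and -1.20, and the dashed line joins male line 1 at both harvest states.

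Next, replication genes were compared between female and male lines, which the labels identify by sex. None of 36 passed in a limma fit of sex and age over all probe sets, where 2 of 7333 (0.0273%) were called. Of the 36, 0 had an unadjusted p under 0.05, against 171 of the 7333 probe sets. Estimates, male minus female, ran from -0.70 to 0.77 log2 with a median of 0.05, against 0.00 over all probe sets, and 21 of 36 were positive. TYMS averaged 1513 ± 986 over the females and 2102 ± 506 over the males (SD, n = 5 each) and had the highest estimate, 0.77 ± 0.45 (SE; limma, adjusted p = 1.0). TK1 stood at 1303 ± 660 and 1927 ± 614 (0.66 ± 0.33), and CDC6 at 263 ± 126 and 152 ± 55.2 (-0.70 ± 0.38). All 3 ranges overlapped between the sexes. The median estimate depended on female line 1 and was -0.18 without that line. In that fit 5 of the 36 had an unadjusted p under 0.05, against 296 of the 7333 probe sets, and 0 of the 36 passed. Without female line 1 the estimate of TYMS was 0.30 and that of TK1 0.39. The estimate of CDC6 was -0.38 without female line 4, and with the mean of their probe sets those of CDC6 and TYMS were -0.43 and 0.49. In the mitosis list 0 of 33 passed by the same fit, and 30 of 33 estimates were positive (median 0.64), where 49.4% were negative over all probe sets.

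Donor age gave no call either. Of 7333 probe sets 0 passed (0%), and 0 of the 36 members had an unadjusted p under 0.05, against 251 of all probe sets. Slopes ran from -0.42 to 0.42 log2 per 10 years with a median of -0.07, and 25 of 36 were negative, against 50.6% of all probe sets. RFC3 (-0.42 ± 0.20, SE) and RFC5 (0.42 ± 0.23), both subunits of the clamp loader, had the slopes farthest from 0 (limma, adjusted p = 0.999 for each). RFC3 was at the floor in male lines 4 and 5, from animals of 17 and 19 years, but also in female line 1, aged 9 years. RFC5 read 456 and 289 in the females aged 20 years, 290 and 262 in the males aged 17 and 19 years, and 100 to 255 in the younger lines. A second RFC5 probe set, above the floor in 5 of 11 arrays, had values of 100 to 186 and did not follow the first (r = -0.02). The slope of RFC5 was 0.23 without female line 4 and 0.14 with the mean of its probe sets, and that of RFC3 was -0.27 with a floor of 150. The median slope changed sign without female line 2 (0.05) or female line 3 (0.02).

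The age slopes of the sexes were compared in a further fit. None of 36 members passed (limma, lowest adjusted p = 0.973), where 1 of 7333 probe sets did (0.0136%). RRM1 had the lowest p, with a male minus female slope of 1.21 ± 0.48 (SE) log2 per 10 years. Its intensities were 815, 862, 231, 453 and 290 in females aged 2, 4, 9, 20 and 20 years and 467, 278, 530, 903 and 582 in males aged 2, 4, 12, 17 and 19 years. It was the 1 member with an unadjusted p under 0.05, against 355 of the 7333 probe sets.

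**Figure D4:**
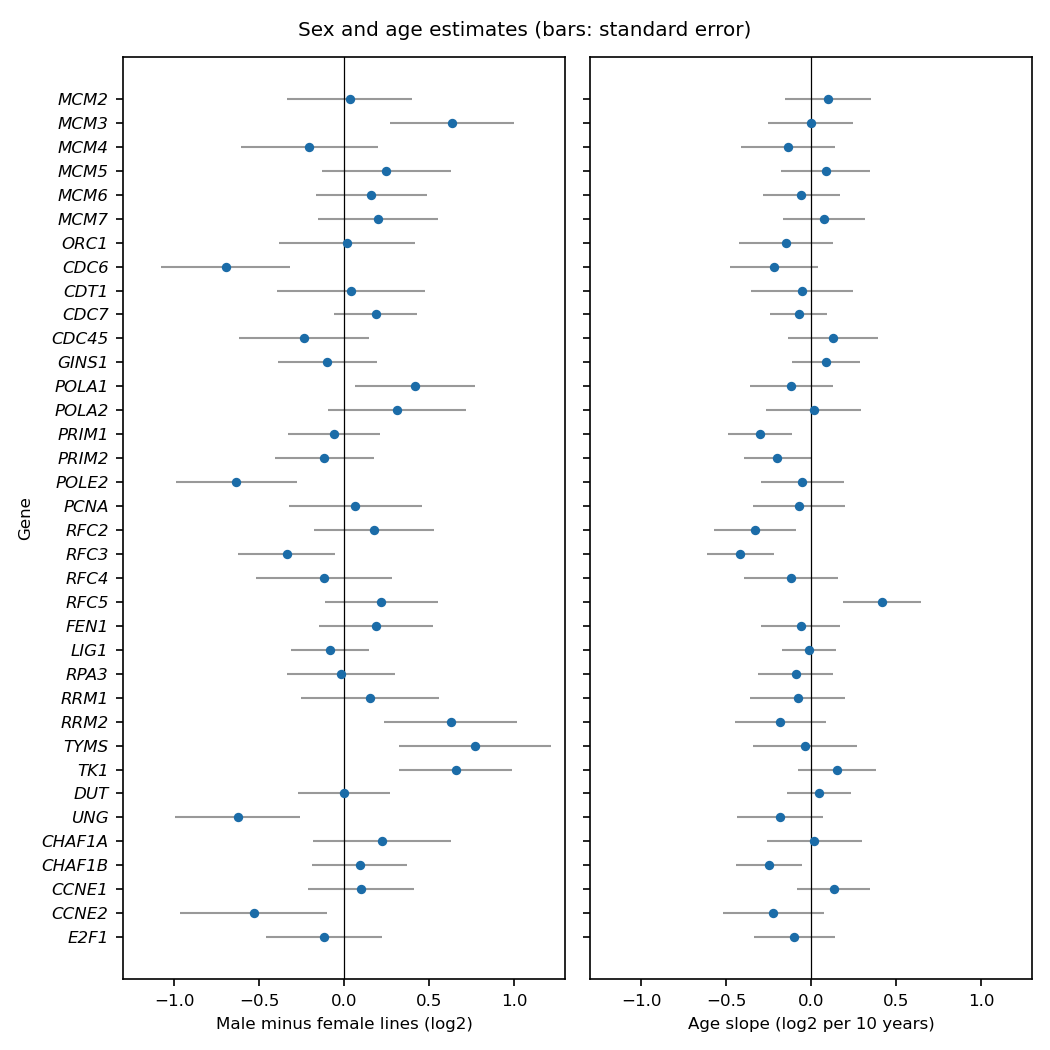
Estimates for 36 replication genes (rows) from the joint fit over 10 lines, male minus female on the left and the slope per 10 years on the right, in log2 with bars of 1 standard error. Points lie on both sides of 0 in both panels, and none passed.

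The last comparison set the 50% confluence culture of male line 1 beside the standard culture of the same line, as the labels do. With 1 culture per state there is no replicate check, and no p is given. Of 27 members above the floor in both cultures, 25 were lower at 50% confluence, where 49.3% of 6147 probe sets were. The median log2 difference was -0.76, against 0.005 over all probe sets. Of the 27 genes, 10 (37.0%) were over 2-fold lower, against 4.75% of all probe sets, and 0 were over 2-fold higher, against 4.88%. A further 9 members fell from above the floor in the standard culture to the floor at 50% confluence, and 0 went the other way. The same count was not taken over all probe sets, so these 9 have no background beside them and nothing is read from them as a set. Such changes occurred in the comparison lists too. Among other replication pathway genes 6 fell to the floor and 3 rose from it. The counts were 0 and 3 in the mitosis list and 3 and 1 among histone genes. The share of probe sets above the floor was 56.7% in the standard culture and 57.1% at 50% confluence. The 50% confluence array was also the one with 18S control signals of 1508 to 2611, which read 100 in the standard culture. Its ACTB 3' to 5' ratio was 0.669, against 1.42. As deposited, it and the array of male line 5 also had a lowest value of 90, where the other 9 arrays, the standard culture of male line 1 among them, had 100. The part of these in the result was not tested.

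**Figure D5:**
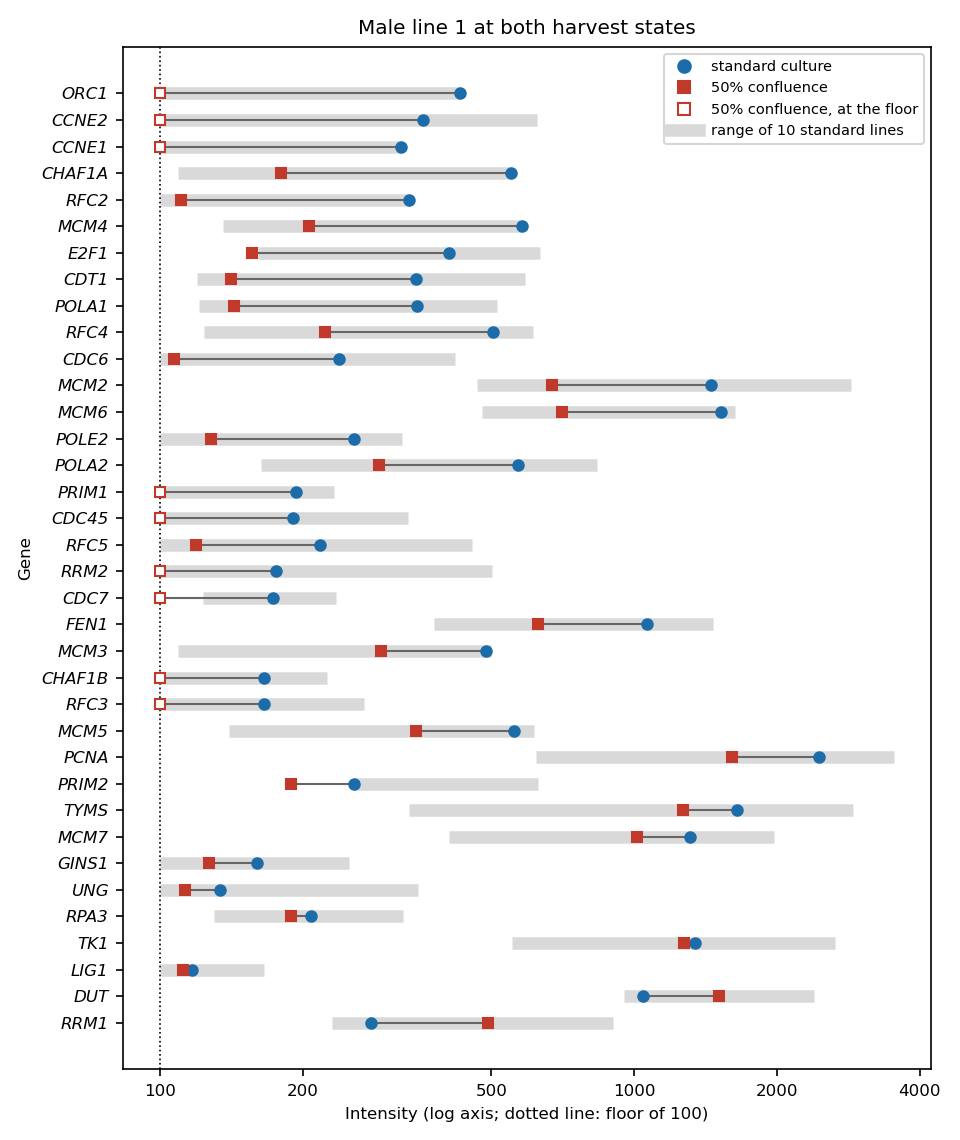
Intensity (log axis) of 36 replication genes in male line 1 in standard culture (circles) and at 50% confluence (squares, open where at the floor of 100), over the range of the 10 standard lines (grey bars). Squares lie left of circles for all genes but DUT and RRM1, and most lie inside the grey bars.

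Among the genes that start replication, all 6 licensing and firing genes and all 3 S phase entry genes were lower at 50% confluence. ORC1 read 430 in the standard culture and 100, the floor, at 50% confluence, so it was at least 4.3-fold lower. The cyclin E genes were likewise at the floor at 50% confluence, CCNE2 from 358 (at least 3.58-fold lower) and CCNE1 from 323 (at least 3.23-fold). E2F1, the transcription factor that drives many of the other members, read 407 and 156, a log2 difference of -1.38, and its 156 lay below all 10 standard lines. The second E2F1 probe set was at the floor in both cultures, so it could show no fall. The licensing genes CDT1 (346 and 141) and CDC6 (238 and 107) were over 2-fold lower, while CDC7 and CDC45 went from 173 and 191 to the floor. GINS1 was nearest to its standard value in this group (160 and 127). CDC7 was the 1 member at the floor at 50% confluence while above it in every standard line.

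All 6 MCM genes were lower, by unequal amounts. MCM4 read 580 and 206, MCM2 1451 and 670 and MCM6 1522 and 706, each over 2-fold lower. MCM3 (486 and 292) and MCM5 (559 and 346) were 1.66-fold and 1.62-fold lower, and MCM7 (1309 and 1013) 1.29-fold. The 6 log2 differences thus ran from -1.49 to -0.37.

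Most fork genes were lower too. RFC2 read 335 and 111, RFC4 505 and 223 and POLA1 349 and 143, all over 2-fold lower, and RFC5 (218 and 119), POLA2 (568 and 290) and POLE2 (256 and 128) were close to 2-fold. A second RFC5 probe set went the other way, from the floor to 142. FEN1 read 1064 and 628, and its other probe sets were also lower, with log2 differences of -1.29 and -0.61. PRIM1 and RFC3 went to the floor from 194 and 166. PRIM2 was at 256 and 189, with 189 below all 10 standard lines. PCNA was at 2447 and 1607 by the probe set used here, but at 789 and 806 by its second, so its difference was not settled. RPA3 (208 and 189) and LIG1 (117 and 112) were near their standard values, but a second RPA3 probe set rose from the floor to 138. Chromatin assembly genes were lower, with CHAF1A at 550 and 180, 3.06-fold, and CHAF1B from 166 to the floor.

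Of the 6 nucleotide supply genes, 4 were lower and 2 higher at 50% confluence. RRM1 was higher at 50% confluence, at 278 and 491, and DUT was higher at 1046 and 1513. Both differences start from a low standard value. Among the 10 standard lines only female line 1 was below male line 1 for RRM1, and only female line 5 for DUT. At 50% confluence both genes were near the medians of the 10 lines, 498.5 and 1524. TK1 was at 1344 and 1276 (1088 and 993 by its second probe set) and UNG at 134 and 113. TYMS was at 1644 and 1266 by the probe set used here and at 232 and 104 by its second, over 2-fold lower. RRM2 fell from 176 to the floor. The median log2 difference was -0.08 over the 5 genes of this role above the floor in both cultures. In the other roles it was -0.92 for the 6 MCM genes, -0.99 for 4 polymerase and primase genes and -0.76 for 7 clamp, loader and joining genes. It was -1.15 for 3 licensing and firing genes. Chromatin assembly and S phase entry had 1 such gene each, CHAF1A (-1.61) and E2F1 (-1.38). Roles were not tested against each other.

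The position of the 50% confluence culture among the lines was read from the 20 genes above the floor in all 11 arrays. Its level was -0.59, below 9 of the 10 standard lines (-0.14 to 0.51) and above female line 1 (-1.35). It read below at least 9 of the 10 lines for 10 of the 20, against 19.6% of 4540 probe sets above the floor in all arrays. Male line 1 in standard culture was itself the highest line for ORC1, MCM4, RFC2, CHAF1A and CCNE1, so their differences start from a high standard value. Against the median of the 10 standard lines, which was chosen for this after the data had been seen, 26 of 27 genes were lower with a median of -0.74, and 6 were over 2-fold lower. The mitosis genes were set beside them, with no test of the difference. The mean log2 difference between the cultures was -0.71 for the 20 replication genes and 0.23 for the 18 mitosis genes. Of 29 mitosis genes above the floor in both cultures, 14 (48.3%) were lower, near the 49.3% of all probe sets, 14 were higher and 1 was over 2-fold lower, KIF2C (247 and 105).

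Other genes of the replication pathway were counted beside the members. Of 74 listed, 59 had a probe set and 49 were tested, and 0 of the 49 passed for sex, age or their product in limma. In male line 1, 23 of 39 (59.0%) were lower at 50% confluence, where 49.3% of all probe sets were, with a median log2 difference of -0.11. The list also held CDK inhibitor, RB family and cyclin D genes, CDK4 and CDK6. Without these, a split that was not planned, 23 of 33 (69.7%) were lower, with a median of -0.15. Over 2-fold lower in the whole list were 4 (10.3%), against 4.75% of all probe sets, and 0 were over 2-fold higher. The 4 were POLD3, a polymerase delta subunit (563 and 188), the histone chaperone gene NASP (524 and 212), DTYMK, which follows TYMS in making dTTP (711 and 330), and POLE3, a polymerase epsilon subunit (1068 and 533). CDC25A, the phosphatase that frees CDK2, went from 408 to the floor. TOP2A, the topoisomerase that untangles copied DNA, was higher at 50% confluence (252 and 442). Female line 1 was the lowest line for 14 of 32 (43.8%), against 17.2% of all probe sets above the floor in the 10 lines. Among the 14 were NASP (227, against 436 to 850) and CDK2 (965, against 1679 to 3265), the latter named after its values were seen.

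Of 3 CDK inhibitor genes in that list, CDKN1B was at the floor in all arrays but that of female line 4 (111). CDKN1C, which encodes the inhibitor p57, read 1616 in female line 1 and 123 to 400 in the other 9 lines, with an SD of 1.08. CDKN1A, which encodes p21 and was named after its values were seen, read 6560 in female line 1 and 1636 to 5059 in the others. They were the 2 genes of the 32 for which female line 1 was the highest line. Of all 4606 probe sets above the floor in the 10 lines, it was the highest for 594. Between the cultures of male line 1, CDKN1A read 2904 in standard culture and 5636 at 50% confluence, and CDKN1C read 162 and 237. CDKN1A and CDKN1C were thus highest in female line 1 and higher at 50% confluence than in standard culture, though neither difference between the cultures passed 2-fold. CDKN1A also read 5059 in male line 3 and 4796 in male line 5, whose replication levels were 0.03 and 0.30. The part of these 2 genes in the levels was not tested.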

How the data were processed

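Fibroblasts of 10 bonobos, 5 female and 5 male, and a second culture of 1 line were profiled on 1 array each, 11 in all. The table deposited by the authors holds linear intensities in whole numbers; their method of probe summary and array scaling was not stated in the labels. The lowest value was 100 in 9 arrays and 90 in 2, and 90 was raised to 100 before taking log2. Without the 67 control probe sets, 7333 lay above 100 in at least 5 of 11 arrays and were tested. Probes follow human sequences, so sequence differences can lower a signal, and no level is compared between genes.

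Symbols came from the array annotation of GEO. A single symbol was found for 10943 probe sets; 545 had several and 1070 had none. Sex and age were fitted jointly, and their product in a second fit, with limma 3.58.1 in R 4.3.3 (eBayes with an intensity trend), with Benjamini-Hochberg adjustment over the 7333 probe sets, threshold 0.05, two-sided. The joint fit was checked on simulated data. The 50% confluence culture had no replicate and no test, and over 2-fold was the threshold there. Members and lists were chosen with earlier results of these data known. All members are accounted for by the naming rule; other pathway genes are those of largest harvest difference or SD. Alternatives were 2 scalings, 2 other floors, a pseudocount of 50, other filters, no trend, the mean of probe sets, single-term fits and leaving out each line. Promoter sequences were not used here.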

Additional observations from a re-analysis of the deposited data

Results flagged for a closer look

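Each of the 36 tested genes was examined within the 5 female and within the 5 male lines, 72 groups in all, for a line whose gap to its nearest neighbour exceeded 0.71 of the group's range on the log2 scale. About 1 group in 20 would hold such a line by chance if values were normally distributed. These values are floored at 100 and the genes are not independent, so that share is a rough guide. They are also the same values in which the level of female line 1 was described above. A line stood apart in 8 groups. In 7 of them it was female line 1, the lowest of the females, with intensities of 136 for MCM4, 140 for MCM5, 406 for MCM7, 120 for CDT1, 621 for PCNA and 109 for CHAF1A, and 100, the floor, for ORC1. The other was CCNE1, at the floor of 100 in female line 3 and 166 to 198 in the other females. No male line stood apart for any of the 36 genes.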

How the results depend on the processing

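None of the members passed for sex, age or their product under any alternative run, and the named estimates of TYMS, CDC6, TK1, RFC3, RFC5 and RRM1 kept their sign under the alternatives that gave them a value. CDC6 and RFC3 had none with a floor at 200, and CDC6, RFC3 and RFC5 none among probe sets above the floor in all 11 arrays. Over all probe sets tested the calls numbered 0 to 3 for sex (2 as reported), 0 or 1 for the product of sex and age (1 as reported) and 0 or 1 for age (0 as reported, 1 with no filter). The median harvest difference ran from -0.84 to -0.67 over the other scalings, floors, pseudocount and gene rules. Counts shrank with higher floors, where fewer genes could be compared: with a floor at 150, 16 of 18 genes were lower at 50% confluence, 6 over 2-fold, and female line 1 was lowest for 10 of 12; with a floor at 200 these were 12 of 14, 4, and 8 of 10. Against the median of the 10 lines, 6 genes were over 2-fold lower in place of 10. With the mean of all probe sets, E2F1 stood at -0.69, since its second probe set was at the floor in both cultures. Leaving out each line gave a median SD of 0.43 to 0.67, a median pairwise r of 0.19 to 0.56 and a correlation with mitosis genes of 0.36 to 0.72, the lowest of each without female line 1. The mean deviation of that line ran from -1.42 to -1.18 over all alternatives. No paired test was possible, because only male line 1 was cultured in both states, with 1 array for each. The female and male lines came from different animals. The line numbers used here only name lines in accession order. The number of arrays and the floor limit what could be seen. With 5 female and 5 male lines, the sex estimates named had standard errors of 0.33 to 0.45 log2. Age was fitted as a slope over the 10 lines. Its standard errors per 10 years were 0.20 (RFC3) and 0.23 (RFC5), and 0.48 for the slope difference of RRM1.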

Other observations

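Histone genes, most of whose transcripts lack a poly(A) tail, were set beside the replication genes, with no test. Of 13 above the floor in both cultures of male line 1, 10 were higher at 50% confluence and 3 (23.1%) lower, where 49.3% of all probe sets were lower, with a median log2 difference of 0.23 and 0 past 2-fold. Female line 1 was the highest line for H2BC12 (703) and H2AC16 (397) and the lowest for 2 of 9 histone genes above the floor in all 10 lines, the replication-independent variants H2AZ1 (842) and H2AZ2 (667). Over all 4606 such probe sets it was the highest for 594 and the lowest for 791. H2AC6 had a correlation of r = -0.78, and H2AZ1, H2AX and H2AZ2 of r = 0.77, 0.61 and 0.49, with the mean of the 20 replication genes over the 10 lines. Female line 1 was the highest line for H2AC6 (419) and the lowest for H2AZ1 and H2AZ2. The correlations were not taken without that line. These genes were named after their values were seen, and clustered histone genes are near-identical, so their probe sets may share signal.

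Within the mitosis list, in genes also named after their values were seen, MYBL2, itself an E2F target, was low in female line 1 (104) and read 327 and 213 in the cultures of male line 1, the standard culture first. CCNB1 went the other way between the cultures (274 and 486), as did AURKA (171 and 337).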
